A study of Mus musculus with 4 samples.

Results

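BMP and TGF-beta pathway genes were followed in hair follicle stem cells (HFSCs, the cells that renew the hair follicle) with and without the microRNA miR-205. The set holds 40 genes for ligands, antagonists, receptors, SMAD proteins, nuclear co-repressors and targets. All 40 were measured, out of 18193 genes, and a gene was taken as measured where a probe set named it alone in the platform annotation. Of several such probe sets, the one with the highest mean over the arrays stood for the gene. Skin of mice at postnatal day 4 gave cells that were sorted by FACS, and their RNA was hybridised to 4 one-colour Affymetrix arrays, 2 of miR-205 KO (knockout) and 2 of WT (wild-type) cells, all on the C57BL/6 background. The titles number the biological replicates 1 and 2 in each group. The sources used here do not give the miR-205 allele, the sorting markers or any pooling of animals. A treatment text attached to all 4 samples describes other mice, in which doxycycline induces miR-203 through K14-rtTA and TRE-miR-203 transgenes beside K14-H2BGFP, and it was not used to form the groups. The labels do not say whether replicates came from separate animals, so the spread behind each p-value is that of these samples and may be technical.

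BMPs, activins and TGF-betas are secreted dimers that assemble type I and type II receptor kinases, which phosphorylate receptor SMADs. BMP receptors act on SMAD1, SMAD5 and SMAD9, and TGF-beta and activin receptors on SMAD2 and SMAD3. Both groups bind SMAD4 and enter the nucleus, where they act on genes such as the Id family, and the inhibitory SMADs close a feedback loop. In the hair follicle, BMP signalling is known for holding stem cells quiescent, and antagonists such as noggin and TGF-beta2 from the dermal papilla for promoting their activation.

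The microRNA that the knockout lacks is shown first, because its seed (bases 2 to 8, in capitals) is what pairs with target RNAs. Both mature arms are from RefSeq on GRCm38.p6 and lie on the minus strand of chromosome 1, at chr1:193507503-193507524 for the 5p arm and chr1:193507467-193507488 for the 3p arm. No target sites were searched here.
miR-205-5p: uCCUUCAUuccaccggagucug
miR-205-3p: gAUUUCAGuggagugaagcuca

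Promoters of 4 genes are shown. Smad6 is an inhibitory SMAD and the only gene of the set found with the palindromic element described below. Id4, Tgfbi and Id3 are the target genes with the largest differences between KO and WT cells in either direction. The 4 were chosen by hand and do not stand for the set. Each window of 300 bases, from RefSeq on GRCm38.p6, holds 250 bases before the transcription start and 50 from it, in the direction of the gene. Capitals mark the palindromic SMAD element GTCTAGAC and the GC-rich SMAD element GGCGCC, which do not overlap each other and read the same on both strands. Smad6 lies at chr9:64022010-64022309 (minus strand), Id4 at chr13:48260866-48261165, Tgfbi at chr13:56609336-56609635 and Id3 at chr4:136143572-136143871 (all 3 on the plus strand).
Smad6: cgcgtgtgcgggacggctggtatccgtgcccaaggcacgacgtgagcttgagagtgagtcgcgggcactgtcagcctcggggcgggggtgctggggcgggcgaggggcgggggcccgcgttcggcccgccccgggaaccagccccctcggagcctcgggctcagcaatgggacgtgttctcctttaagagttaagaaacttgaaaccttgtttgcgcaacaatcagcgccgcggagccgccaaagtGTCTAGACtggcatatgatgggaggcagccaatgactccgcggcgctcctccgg
Id4: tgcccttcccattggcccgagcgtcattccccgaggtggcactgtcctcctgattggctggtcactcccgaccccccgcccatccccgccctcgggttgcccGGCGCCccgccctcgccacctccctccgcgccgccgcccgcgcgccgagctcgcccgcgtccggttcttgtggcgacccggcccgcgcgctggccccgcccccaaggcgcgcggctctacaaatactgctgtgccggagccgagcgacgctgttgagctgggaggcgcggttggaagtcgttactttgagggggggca
Tgfbi: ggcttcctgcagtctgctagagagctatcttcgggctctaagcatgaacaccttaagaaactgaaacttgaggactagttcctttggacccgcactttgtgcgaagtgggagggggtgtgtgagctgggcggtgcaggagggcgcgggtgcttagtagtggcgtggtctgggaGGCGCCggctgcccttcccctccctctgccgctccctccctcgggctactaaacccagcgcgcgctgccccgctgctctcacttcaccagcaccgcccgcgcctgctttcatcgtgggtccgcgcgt
Id3: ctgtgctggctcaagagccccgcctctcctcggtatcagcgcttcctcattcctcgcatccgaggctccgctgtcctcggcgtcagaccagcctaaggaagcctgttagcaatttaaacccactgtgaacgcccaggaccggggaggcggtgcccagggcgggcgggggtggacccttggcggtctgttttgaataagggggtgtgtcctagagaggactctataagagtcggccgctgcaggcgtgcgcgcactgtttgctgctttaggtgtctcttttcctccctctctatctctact

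Of the 40 genes, 28 matched the promoter table, with 38 windows. GTCTAGAC occurred in 1 of the 38, that of Smad6, where its first base lay at -4 from the start, and in 0.213% of all 32851 promoter windows. GGCGCC occurred in 13 of the 38 windows, belonging to 12 genes, and in 11.9% of all windows. Its first base lay at -148 in Id4 and at -77 in Tgfbi, and the Id3 window holds neither motif. A shorter SMAD-binding motif, CAGACA, read on both strands and sharing the core AGAC with the palindrome, occurred in 7 of the 38 windows, belonging to 6 genes, and in 21% of all windows. These are letter matches in the window shown, and no binding was measured.

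All array pairs correlated at 0.992 to 0.997 across genes, and genes are not independent of each other. The 12 listed markers of hair follicle stem cells and outer root sheath all had means above the median gene (6.88 on the log2 scale). Krt15, a keratin of the follicle bulge, was between 13.62 and 14.05. The surface marker Cd34 was at 8.32 on WT 1. On KO 1, KO 2 and WT 2 it was at 6.87, 6.69 and 6.20, below the median gene. KO and WT arrays also differed in sex-linked RNA. Xist was at 5.26 and 5.45 in KO against 13.28 and 13.19 in WT cells, and the Y-linked gene Eif2s3y at 9.59 and 9.57 against 3.05 and 2.86. These were the 2 genes past the adjusted threshold, so genotype and sex cannot be told apart in any comparison below. Markers of dermal fibroblasts separated single arrays. The log2 of the summed level of 14 of them was 15.65 and 13.34 on WT 1 and WT 2, with 14.72 and 13.77 on KO 1 and KO 2 between them, and 12 of the 14 took the order WT 1, KO 1, KO 2, WT 2. Cd34 and Postn, of the stem cell and outer root sheath list, took that order too. In sorted cells of mixed origin, fewer cells of a type and less RNA per cell cannot be told apart.

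No gene of the set passed the test between KO and WT. With limma and Benjamini-Hochberg adjustment over all 18193 genes, 0 of the 40 had an adjusted p under 0.05, against 0.011% of all genes, and the smallest adjusted p among the 40 was 1. Without adjustment, 1 gene, Inhbb, had a p under 0.05 and was higher in KO cells (1.15% of all genes), and 0 were lower (0.726% of all genes). None differed by at least 1.5-fold (0.627% of all genes). Differences are given throughout as KO minus WT, in log2 units. It was above 0 for 14 genes, below 0 for 25 and exactly 0 for 1. The median over the 40 was -0.02, against 0.01 over all genes, and the single values ran from -0.33 to 0.34. The 95% intervals lay inside a 1.5-fold change in both directions for 23 genes. Among the 23 were Nog, Chrd and Bmpr1b, dim genes whose differences the values may understate. Inhba, with the same value on all 4 arrays, was also among them. So were Bmp7, Ltbp1 and Smad5, whose WT arrays had equal values. A spread of 0 in WT can make an interval too narrow. For the other 17 these arrays do not exclude a change of that size, and the median interval reached 0.40 to either side.

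**Figure D1:**
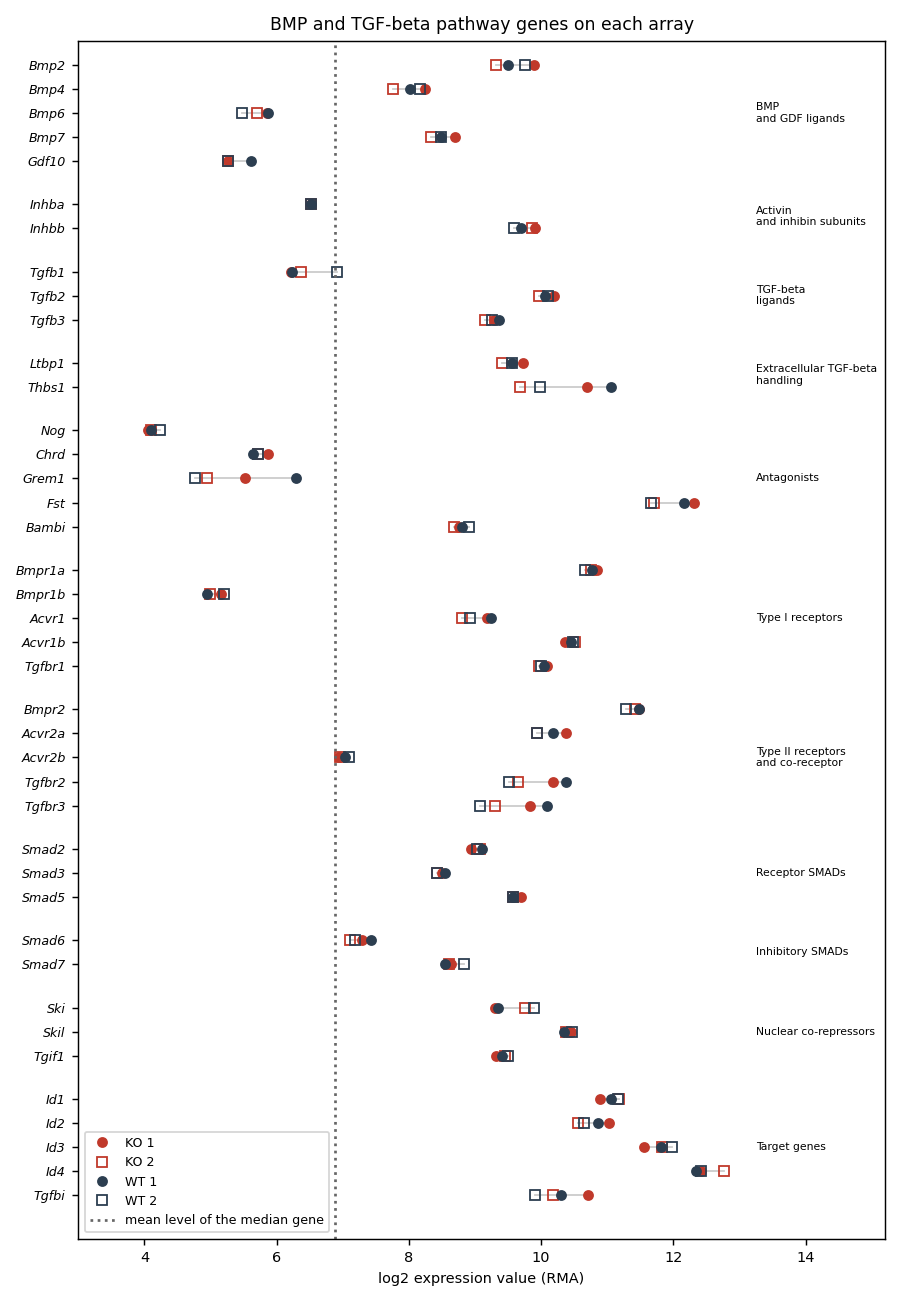
Log2 expression value (x axis) of the 40 genes (y axis, by class) on the 4 arrays, with KO in red and WT in dark blue, filled circles for replicate 1 and open squares for replicate 2. Most genes hold all 4 arrays close together, while Thbs1, Grem1, Tgfbr2 and Tgfbr3 separate the circles from the squares rather than the colours.

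Among the BMP ligands, the values differed more between replicates than between genotypes. Bmp2 is made by follicle and epidermal cells and is a classical inducer of the Id genes. It was at 9.90 and 9.32 on KO 1 and KO 2, and at 9.50 and 9.75 on WT 1 and WT 2. The KO arrays were the highest and the lowest of the 4, so the groups overlapped completely. The difference was -0.02 (SE 0.25, 95% interval -0.81 to 0.78). Bmp4, its closest relative, took the same order of arrays and differed by -0.09, with 0.24 between the arrays numbered 1 and -0.41 between those numbered 2. Bmp7, which can pair with either, differed by 0.02, with 0.20 and -0.16 by number, and both WT arrays gave 8.49. 3 of the 5 ligands were above the median gene. Those below it were Bmp6 (means of 5.77 in KO and 5.67 in WT) and Gdf10, also named Bmp3b, which was at 5.26 on 3 arrays and at 5.61 on WT 1.

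Inhbb encodes the beta B subunit of activin B and inhibin B. It was at 9.90 and 9.86 in KO cells and at 9.70 and 9.59 in WT cells. Both KO arrays lay above both WT arrays. The difference was 0.24 (SE 0.06, 95% interval 0.04 to 0.43, limma unadjusted p = 0.031 and adjusted p = 1), a 1.18-fold higher level. It was 0.20 and 0.27 within the numbers and stayed between 0.18 and 0.29 when any 1 array was left out. Its second, dimmer probe set differed by 0.12, with KO at 7.17 and 7.50 and WT at 7.14 and 7.30, so the groups overlapped there. Inhbb was the 1 gene of the 40 whose KO arrays both exceeded its WT arrays, an order that 8.2% of all genes showed. The summed level of 6 suprabasal epidermal markers was also higher on both KO arrays, with a log2 of 13.39 and 13.36 against 12.80 and 12.52 in WT, and the bright genes Krt1, Krt10 and Krtdap carried that sum. Those 3 had both KO arrays above both WT arrays, while Lor, Flg and Ivl overlapped between the groups, with a lower KO mean for Ivl (-0.11). Of the 12 stem cell and outer root sheath markers, 5 also had both KO arrays above both WT arrays. They were Krt5, Krt14, Krt15, Lhx2 and Tbx1, the last only just, with KO 1 and WT 2 both at 10.5758 after rounding. The part of these markers in the Inhbb difference was not tested. Inhba, the beta A subunit, had the same value, 6.53, on all 4 arrays. Its brighter probe set was below the median gene, and the second one, with a mean of 4.35, differed by 0.17.

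The TGF-beta ligands showed no difference past the test either. Tgfb2, the isoform known for activating follicle stem cells, was at 10.20 and 9.97 in KO and at 10.06 and 10.10 in WT cells. The KO arrays again enclosed the WT arrays, and the difference was -0.0015 (SE 0.10, 95% interval -0.32 to 0.32). Its other 3 probe sets differed by 0.01, -0.01 and -0.08. Tgfb3 differed by -0.09 (SE 0.08), with -0.07 and -0.11 by number. Tgfb1, which was below the median gene, differed by -0.28 (SE 0.29). Its values, given after they were seen, were highest on WT 2, at 6.92, while the other 3 arrays were between 6.22 and 6.37, and the difference without WT 2 was 0.07. Its second probe set differed by 0.05. The macrophage marker Cd68 was likewise highest on WT 2, at 6.89 against 5.34 to 6.02 elsewhere, a comparison picked once its values were known. None of the other 5 immune markers had a gap of that kind. Itgam was lowest on WT 2, and Ptprc and Cd3e had a value there that another array also had. Lyz2 and Cd74 were highest on WT 2 by a small margin, at 5.958 and 5.861 against 5.950 on KO 2 and 5.857 on WT 1. The log2 of the summed level of the 6 was 8.36 on WT 2, against 7.96 on KO 1, 8.09 on KO 2 and 7.86 on WT 1. None of the 6 immune markers had a mean above the median gene. Whether immune cells bear on Tgfb1 was not tested.

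A pair of extracellular proteins handles latent TGF-beta. Thbs1 encodes thrombospondin 1, a matrix glycoprotein that can activate latent TGF-beta. It was at 10.70 and 9.68 in KO and at 11.05 and 9.99 in WT cells. Both arrays numbered 1 were about a log2 unit above those numbered 2, by 1.02 in KO and 1.06 in WT. The KO array was lower than the WT array within each number, with differences of -0.35 and -0.31, and the difference of -0.33 had an SE of 0.60. Its second probe set differed by -0.16 (SE 0.74). Ltbp1, which tethers latent TGF-beta to the matrix, was at 9.56 on both WT arrays and at 9.72 and 9.41 on the KO arrays, with a difference of -0.0001.

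**Figure D2:**
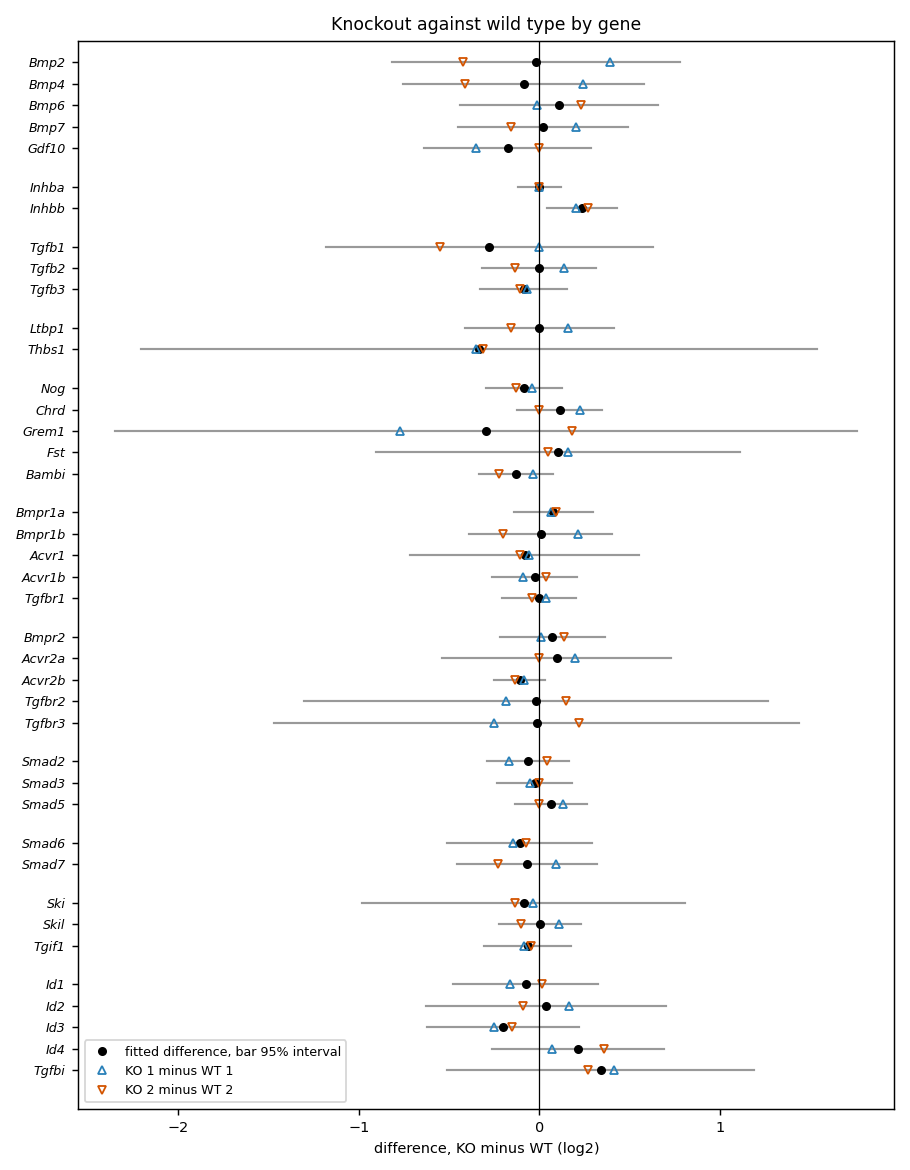
KO minus WT difference (x axis, log2) of each of the 40 genes (y axis), as the limma estimate with its 95% interval (black point and grey bar) and between the arrays numbered 1 (blue) and numbered 2 (orange). Only the interval of Inhbb, from 0.04 to 0.43, leaves out 0, and those of Thbs1 and Grem1 are the widest.

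Antagonists of the pathway were measured by 5 genes. Fst encodes follistatin, which binds activins and some BMPs. It was at 12.31 and 11.70 in KO and at 12.16 and 11.66 in WT cells. The arrays numbered 1 were higher in both genotypes, and the difference between genotypes was 0.10 (SE 0.32). Its second probe set gave 0.095. Bambi, a pseudoreceptor without a kinase that blunts signalling and is itself induced by it, was at 8.76 and 8.68 in KO and at 8.80 and 8.90 in WT cells. It too was picked once its values were known. Both KO arrays lay below both WT arrays, with a difference of -0.13 (SE 0.07, 95% interval -0.34 to 0.08, limma unadjusted p = 0.14 and adjusted p = 1). Noggin (Nog), chordin (Chrd) and gremlin 1 (Grem1), secreted BMP binders, were all below the median gene. Nog and Chrd differed by -0.08 and 0.11. Grem1 differed by -0.77 between the arrays numbered 1 and by 0.18 between those numbered 2. Its values are given because of their spread. It was at 6.29 on WT 1 against 4.77 on WT 2, a wider gap than that between genotypes (-0.29, SE 0.65).

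Type I receptors had differences between genotypes from -0.08 to 0.08 in all 5. Bmpr1a is the BMP receptor whose loss in follicle stem cells is known to release them from quiescence. It was at 10.84 and 10.75 in KO and at 10.78 and 10.66 in WT cells, a difference of 0.08 (SE 0.07, 95% interval -0.14 to 0.30). The groups overlapped, and KO was higher within both numbers. Its 5 other probe sets differed by values from -0.14 to 0.11. The paralog Bmpr1b was below the median gene, with means of 5.08 in KO and 5.07 in WT. The activin receptor Acvr1b differed by -0.03 (95% interval -0.26 to 0.21) and the TGF-beta receptor Tgfbr1 by -0.0007 (95% interval -0.21 to 0.20). Acvr1, a type I receptor of BMPs, differed by -0.08 (SE 0.20), and its arrays numbered 1, at 9.18 and 9.24, were above those numbered 2, at 8.81 and 8.92.

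Type II receptors had differences between genotypes from -0.11 to 0.10, and none passed the test. Bmpr2, the type II receptor dedicated to BMPs, was at 11.48 and 11.42 in KO and at 11.47 and 11.28 in WT cells. The difference was 0.07 (SE 0.09, 95% interval -0.22 to 0.36). Of the activin type II receptors, which also serve BMPs, Acvr2a differed by 0.10 (SE 0.20). Acvr2b, picked once its values were known, was at 6.95 and 6.96 in KO and at 7.03 and 7.09 in WT cells. Both KO arrays lay below both WT arrays, with a difference of -0.11 (SE 0.04, 95% interval -0.25 to 0.03, limma unadjusted p = 0.088 and adjusted p = 1). All 3 probe sets of Acvr2b had lower means in KO cells. In the second, KO 2 (6.87) lay above WT 1 (6.78), and in the third KO 1 and WT 1 had the same value, 4.11. Bambi and Acvr2b were the 2 genes with both KO arrays below both WT arrays, an order that 5.7% of all genes showed.

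Tgfbr2 and Tgfbr3 separated the replicates widely. Tgfbr2, the TGF-beta type II receptor, was at 10.18 and 9.66 in KO and at 10.37 and 9.51 in WT cells. Tgfbr3, or betaglycan, a co-receptor that presents TGF-beta2, was at 9.84 and 9.30 in KO and at 10.09 and 9.08 in WT cells. For both genes the WT arrays were the highest and the lowest of the 4, and the genotype differences were -0.02 (SE 0.41) and -0.02 (SE 0.46). By number they were -0.19 and 0.15 for Tgfbr2, and -0.25 and 0.22 for Tgfbr3. The dimmer probe sets of both genes, with means of 6.29 and below, did not show the gap between WT 1 and WT 2.

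Receptor SMADs differed little by the probe sets that stand for them. Smad5, of the BMP branch, was at 9.70 and 9.57 in KO and at 9.57 on both WT arrays, with 3 arrays exactly equal. The difference was 0.06 (SE 0.06, 95% interval -0.14 to 0.27). Smad2 and Smad3, of the TGF-beta and activin branch, differed by -0.06 (SE 0.07) and -0.03 (SE 0.07). All 3 intervals lay inside a 1.5-fold change. The second probe set of Smad5 varied far more, at 8.81 and 8.14 in KO and at 8.94 and 8.06 in WT cells, with a difference of -0.03 (SE 0.45). Of the inhibitory SMADs, Smad7, which blocks both branches, was at 8.64 and 8.60 in KO and at 8.54 and 8.83 in WT cells. The WT arrays enclosed the KO arrays, and the difference was -0.07 (SE 0.12). Smad6, which acts mainly on the BMP branch and whose promoter holds the palindromic element above, differed by -0.11 (SE 0.13), with -0.15 and -0.07 by number. The nuclear co-repressors Ski, Skil and Tgif1 bind SMAD complexes at target genes. Skil was at 10.45 and 10.37 in KO and at 10.34 and 10.47 in WT cells, a difference of 0.0041 (SE 0.07), and its dimmer probe set differed by -0.18. Tgif1 differed by -0.06 (SE 0.08). Ski differed by -0.09 (SE 0.29). It was higher on the arrays numbered 2, with KO 1 minus KO 2 at -0.44 and WT 1 minus WT 2 at -0.54.

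Target genes went in both directions, and none passed. The Id genes encode proteins that bind basic helix-loop-helix factors and keep them off DNA, and BMP signalling is known to induce Id1 to Id3 in many cell types. Id1 and Id3 had lower means in KO cells, with differences of -0.08 (SE 0.13) and -0.20 (SE 0.14). Id3, shown in full on account of its values, was at 11.56 and 11.83 in KO and at 11.81 and 11.98 in WT cells. KO 2 lay above WT 1, so the groups overlapped, while the KO array was lower within each number, with differences of -0.25 and -0.15. Id2 differed by 0.04 (SE 0.21), and its 2 other probe sets by -0.06 and -0.19.

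Id4 differed in the opposite direction from Id3. It was at 12.41 and 12.77 in KO and at 12.34 and 12.41 in WT cells. KO 2 stood above the other 3 arrays, and KO 1 and WT 2 had the same value. The difference was 0.21 (SE 0.15, 95% interval -0.26 to 0.69, limma adjusted p = 1). Without KO 2 it was 0.04. All 3 probe sets of Id4 were higher in KO cells, by 0.21, 0.24 and 0.41, and in the second, at 12.03 and 12.29 against 11.91 and 11.92, both KO arrays were above both WT arrays. Probe sets of a gene share the RNA of the same arrays and are not replicates.

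Tgfbi encodes a secreted matrix protein named for its induction by TGF-beta, and it had the largest positive difference of the 40. It was at 10.71 and 10.18 in KO and at 10.30 and 9.91 in WT cells. KO 2 was below WT 1, so the groups overlapped. The difference was 0.34 (SE 0.27, 95% interval -0.51 to 1.19, limma adjusted p = 1), with 0.41 and 0.27 by number. It was 0.07 without KO 1, 0.61 without KO 2, 0.54 without WT 1 and 0.14 without WT 2. All 4 probe sets were higher in KO cells, by values from 0.16 to 0.34.

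**Figure D3:**
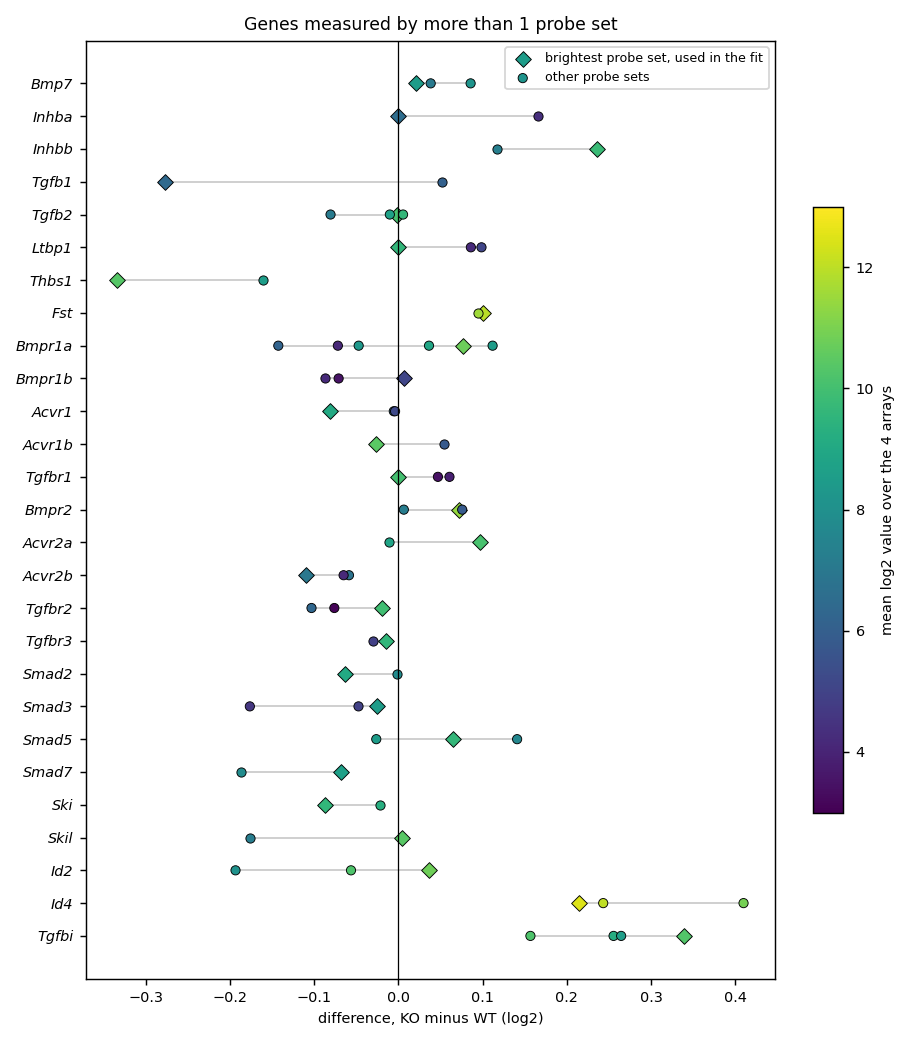
KO minus WT difference (x axis, log2) of every probe set of the 27 genes that have more than 1 (y axis), with a diamond for the brightest probe set, which stands for the gene, circles for the others, and colour for the mean log2 value over the 4 arrays. The probe sets of Id4 and Tgfbi all lie to the right of 0, while those of Bmpr1a lie on both sides.

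The 40 genes had 87 probe sets in all, and 27 genes had more than 1. In 6 of the 27 every probe set was higher in KO cells (Bmp7, Bmpr2, Fst, Id4, Inhbb and Tgfbi). In 9 every one was lower (Acvr1, Acvr2b, Ski, Smad2, Smad3, Smad7, Tgfbr2, Tgfbr3 and Thbs1). Some of these differences were near 0, such as 0.0064 for Bmpr2, -0.0017 for Smad2 and -0.004 for Acvr1. The share of all genes whose probe sets had the same sign was not computed. Of the 47 probe sets not used in the fit, 17 had the opposite sign to the one used. Exactly equal values on at least 2 arrays occurred in 8 of the 40 genes, against 43% of all genes.

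Replicate number separated the arrays of these genes more than genotype did. The difference between the numbers was larger than that between genotypes in 31 of the 40 genes, against 54.3% of all genes. The median absolute difference was 0.16 between numbers and 0.08 between genotypes, against 0.11 and 0.07 over all genes. Both arrays numbered 1 lay above both numbered 2 in 16 of the 40 genes (22% of all genes), among them Thbs1, Fst, Acvr1, Acvr2a, Bmpr1a, Bmpr2, Tgfbr2 and Tgfbr3. They lay below in 7 (21.7% of all genes), namely Tgfb1, Nog, Acvr1b, Ski, Tgif1, Id1 and Id3. In 18 genes the KO minus WT difference had opposite signs in the 2 numbers, against 34.8% of all genes. 4 of the 5 BMP and GDF ligands were among them, with a class median of 0.20 between the arrays numbered 1 and of -0.16 between those numbered 2. Of the 40 genes, 32 were above the median gene, and 8 had equal values on at least 2 arrays, against 43% of all genes. The shares over all genes were not matched for level or for equal values.

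**Figure D4:**
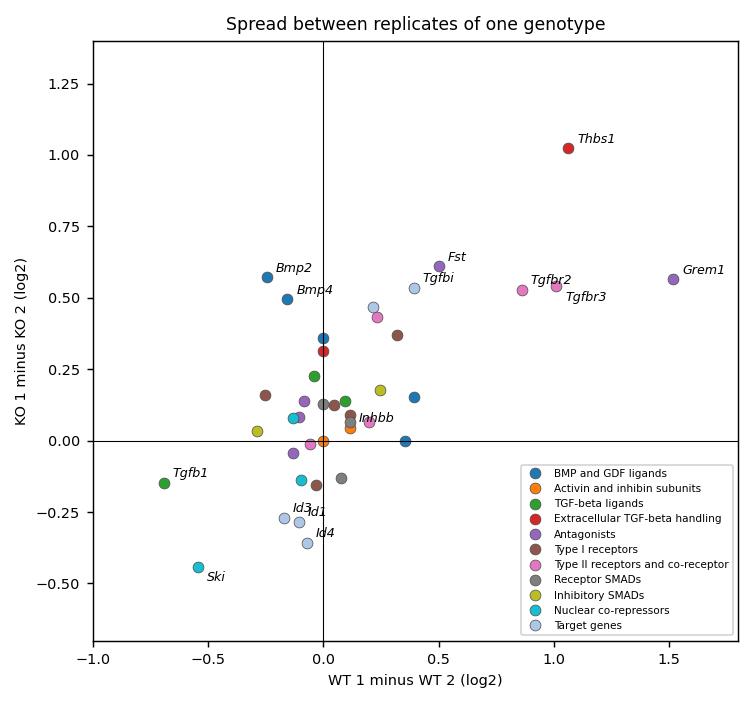
Replicate 1 minus replicate 2 in WT cells (x axis, log2) and in KO cells (y axis, log2), 1 point per gene, coloured by class. Thbs1 lies more than 1 log2 unit above 0 on both axes, Grem1, Tgfbr2 and Tgfbr3 reach further in WT than in KO, and Ski and the Id genes Id1, Id3 and Id4 lie below 0 on both.

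Some of the 40 genes took the order of arrays that the fibroblast markers took. WT 1 was the single highest array in 11 genes (17.4% of all genes), and KO 2 the single lowest in 13 (18.7% of all genes). The full order WT 1, KO 1, KO 2, WT 2 was found in 4 genes, Bmp6, Grem1, Tgfbr2 and Tgfbr3, against 4.33% of all genes. A gene with equal values on at least 2 arrays cannot take a full order. Such genes were 43% of all genes but only 8 of the 40, which lowers the share over all genes. WT 1 minus WT 2 was 1.52 for Grem1, 1.01 for Tgfbr3 and 0.86 for Tgfbr2. The fibroblast marker Col1a2 was at 13.10 and 11.86 in KO and at 13.89 and 11.34 in WT cells. The part of fibroblast RNA in the values of these genes was not tested.

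**Figure D5:**
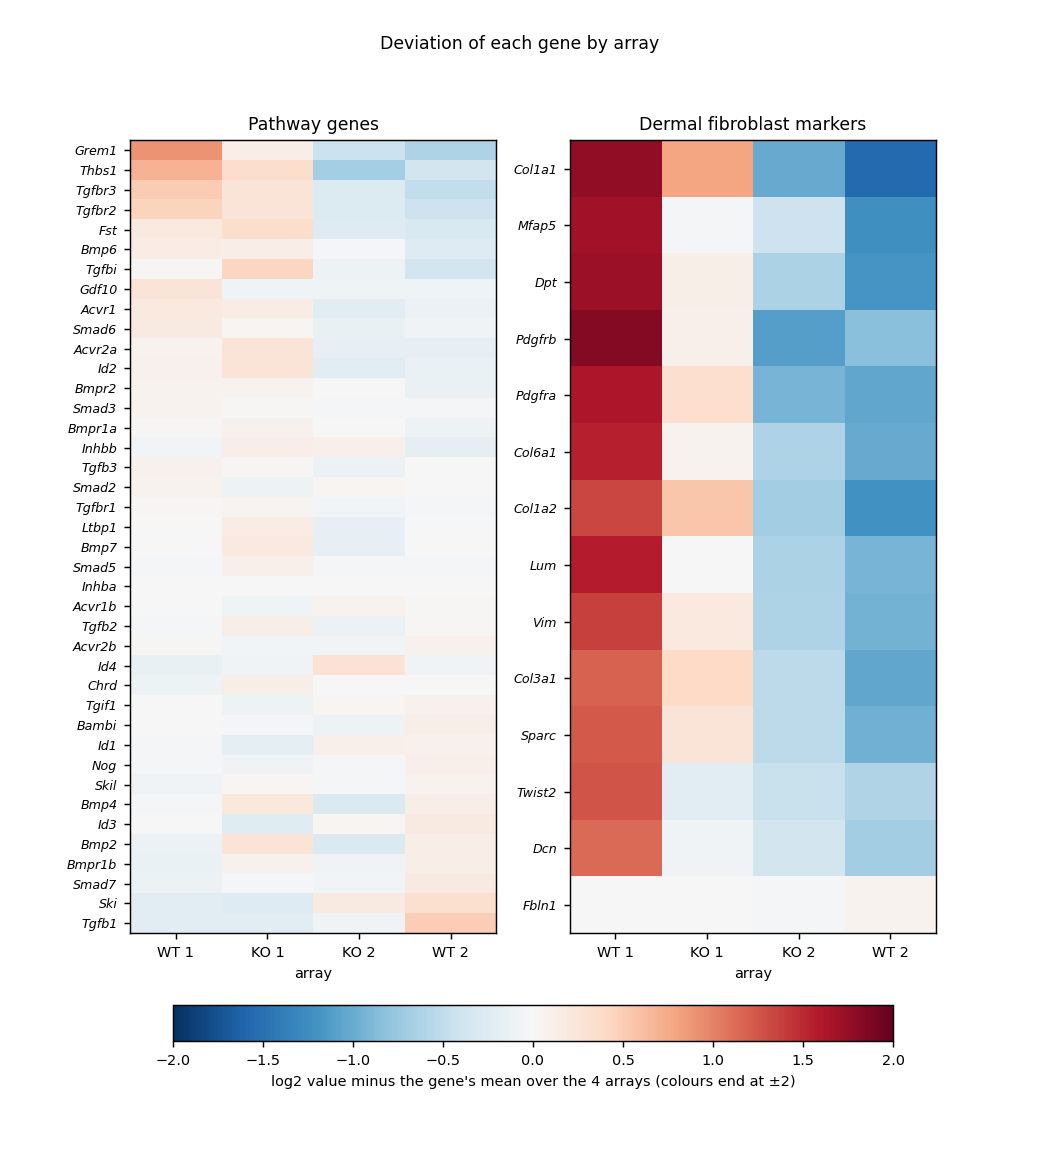
Log2 value minus the gene's own mean over the 4 arrays, as colour, for the 40 pathway genes (left) and 14 dermal fibroblast markers (right), with the arrays as columns ordered WT 1, KO 1, KO 2, WT 2 and genes sorted by WT 1 minus WT 2. Grem1, Thbs1, Tgfbr3 and Tgfbr2 at the top of the left panel share the red WT 1 column of the fibroblast markers.

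Other genes of the pathway gave no call either. Of 61 listed, 54 were measured, and 0 had a limma adjusted or unadjusted p under 0.05, the smallest unadjusted p being 0.16. The median difference was 0.01, with 29 above 0 and 25 below. Of the 8 with the smallest p, Tob1, which dampens BMP-driven SMAD activity, was at 11.00 and 10.67 in KO and at 11.00 and 11.26 in WT cells, a difference of -0.30 (SE 0.17). Both KO arrays lay below both WT arrays, KO 1 by a difference of -0.0030 from WT 1. The SMAD4 ubiquitin ligase gene Trim33 and Map3k7, which encodes the kinase TAK1 of the SMAD-independent branch, differed by 0.10 (SE 0.06) and 0.13 (SE 0.09), and their KO and WT arrays did not overlap. Nor did those of the ligand gene Gdf11 (0.08) and the chordin-like gene Chrdl2 (0.19), both below the median gene. The others were Nrros (-0.23), a presenter of latent TGF-beta, the endothelial type I receptor gene Acvrl1 (0.20) and Tmeff1 (-0.32), a membrane protein with follistatin domains. In all, 5 of the 54 had both KO arrays above both WT arrays (8.2% of all genes). Both lay below in 2 of them, Tob1 and Nrros (5.7% of all genes). The remaining SMAD genes, chosen after their values were seen, differed by -0.05 for Smad1, 0.03 for Smad4 and -0.12 for Smad9.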

How the data were processed

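The deposited values are log2 expression per probe set. The submitters' processing notes name RMA, without a version, as the authors' tool. RMA usually subtracts background, sets all arrays to 1 distribution and summarises the probes of a set, which compresses differences of dim genes. The probe set definition is not given in the sources used here, and no detection calls were used. Of 45101 probe sets, 34945 had 1 gene symbol in GEO's platform annotation, 932 several, 9160 none here, and 64 were controls. The probe set of highest mean stood for each of 18193 genes. No filter on dim genes was applied. Levels of different probe sets served to pick the probe set of a gene, to place genes against the median gene and to choose genes shown in full. They are not read as ranks of abundance, since probes differ in affinity.

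KO was compared with WT in limma 3.58.1 (R 4.3.3, lmFit and eBayes, no covariate, two-sided), with Benjamini-Hochberg adjustment over all genes, a threshold of 0.05 and 95% intervals. The number of arrays, 2 per group, limits the precision, and an exact permutation test of 1 gene could not go below 0.33. The fit was tested on simulated data with independent noise and no shared effect of replicate number. That test does not cover a spread shared by arrays of the same number. The pathway genes, marker lists and tests were chosen with earlier results of these data known. Values on every array are given for genes with an unadjusted p under 0.05, a difference of at least 1.5-fold, a range of at least 1.5-fold above the median gene, or the highest mean of their class, and for up to 8 other pathway genes of smallest p a difference is given. Any gene shown in full beyond this rule was picked once its values were known. Alternatives were another normalization, a filter on dim genes, other uses of probe sets, a replicate block, other eBayes settings, another threshold and leaving out each array.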

Additional observations from a re-analysis of the deposited data

How the results depend on the processing

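None of the pathway genes tested had an adjusted p under 0.05 in any alternative run with limma: quantile normalization again, centring on array medians, dropping genes below the median gene, averaging or separating the probe sets, a replicate block, an intensity trend with a robust prior, an adjusted p under 0.10, or leaving out any 1 array. All 40 were tested except in the run without genes below the median gene, which held 32. The count over all genes was 2 (Xist and Eif2s3y), 3 with quantile normalization or median centring, and 1 without genes below the median gene, where fewer genes were tested. It was 0 with the mean of probe sets, with every probe set by itself, with the replicate block and without any 1 array. The median difference of the 40 genes lay between -0.042 and -0.0092 across the settings that keep all arrays, and between -0.080 and 0.074 without 1 array (without KO 1 and without KO 2).

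The labels do not say what the numbers share, although arrays of 1 number deviated together (r = 0.56 across genes). With the number as a replicate block every difference is the same, and 4 of the 40 genes (Inhbb, Thbs1, Id3 and Tgfbi) had an unadjusted p under 0.05, against 4.83% of all genes in the same fit. Without the block it was 1 of the 40, against 1.88% of all genes. That 1 gene, Inhbb, kept an unadjusted p under 0.05 without WT 1, but not without KO 1, KO 2 or WT 2, or with the mean of probe sets.

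Inhba was at 0 in all 4 fits without 1 array, and Gdf10 (-0.35 to 0) and Smad5 (0 to 0.13) reached 0. With these genes counted in, the sign of 13 of the 40 differences did not reverse in any of those fits. It changed for the others, whose lowest and highest values were as follows: Bmp2 (-0.30 to 0.27), Bmp4 (-0.33 to 0.16), Bmp6 (-0.090 to 0.30), Bmp7 (-0.16 to 0.20), Tgfb1 (-0.62 to 0.069), Tgfb2 (-0.12 to 0.11), Ltbp1 (-0.16 to 0.16), Thbs1 (-0.87 to 0.20), Grem1 (-1.05 to 0.46). For the remaining genes they were Fst (-0.20 to 0.41), Bmpr1b (-0.12 to 0.13), Acvr1 (-0.27 to 0.10), Acvr1b (-0.10 to 0.052), Tgfbr1 (-0.062 to 0.061), Bmpr2 (-0.027 to 0.17), Acvr2a (-0.12 to 0.31), Tgfbr2 (-0.45 to 0.41), Tgfbr3 (-0.52 to 0.49), Smad2 (-0.13 to 0.0021), Smad3 (-0.084 to 0.033), Smad6 (-0.23 to 0.013), Smad7 (-0.21 to 0.076), Ski (-0.36 to 0.18), Skil (-0.061 to 0.070), Tgif1 (-0.13 to 0.0036), Id1 (-0.22 to 0.066), Id2 (-0.20 to 0.27). Other signs changed near 0: Tgfb2 was 0.0032 with quantile normalization and 0.0072 with median centring, where Ltbp1 was 0.0086 and Tgfbr1 0.0079. With the mean of probe sets Ltbp1 was 0.062, Bmpr1a -0.0062, Bmpr1b -0.050, Acvr1b 0.014, Tgfbr1 0.036, Skil -0.086 and Id2 -0.071. The share of all genes whose sign did not reverse was not computed. With 1 array left in a group, that array is assumed to vary like the other group. Dim genes such as Nog, Chrd, Grem1 and Bmpr1b may lie near background, where RMA values understate differences.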
